A study of Homo sapiens with 6 samples.

Results

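The miR-26 family of human cells comes from 3 hairpins, each inside an intron of a gene for a small CTD phosphatase. The members described here are hsa-miR-26a-5p, hsa-miR-26a-2-3p, hsa-miR-26b-5p and hsa-miR-26b-3p, chosen by name as 4 of the 1000 mature miRNAs in the count table. All 4 were among the 826 miRNAs that were tested, those whose highest count was above 7. The table also lists hsa-miR-26a-1-3p, the remaining arm of the family, and its values are given beside those of the members.

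Mature miRNAs were counted in 3 ΔTUT4/7 and 3 wild type libraries, to ask how the loss of both enzymes alters miRNA abundance. Both strains are HEK 293T, a transformed human embryonic kidney line, grown without treatment. TUT4 and TUT7, also called TENT3A and TENT3B, add untemplated uridines to RNA 3′ ends, and both genes are knocked out in ΔTUT4/7 cells. The ΔTUT4/7 cells are 1 strain that was made earlier in another laboratory, and the wild type cells came from a cell repository, so the deletion cannot be told apart from other differences between the strains. The libraries are labelled as biological replicates, and p-values set the difference between the strains against the spread between libraries of a strain. The mRNAs of the deleted genes are outside these counts, so the strain labels were not checked against them.

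A miRNA hairpin is cut by DROSHA and DICER into a short duplex, from which 1 arm, 5p or 3p, is usually kept by Argonaute as the guide, while the other arm is mostly degraded. In miR-26 the 5p arm is the guide, and it represses EZH2, the methyltransferase of the Polycomb complex PRC2, among other mRNAs. The miR-26 hairpins are known to act with their host phosphatases to restrain phosphorylation of RB and entry into S phase. miR-26a is a reported uridylation target, both as a precursor and as a mature miRNA.

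The mature sequences were read from RefSeq (build GRCh38.p14, the hg38 assembly of the count table) and are shown because the arms differ by few bases. Capitals mark the seed, bases 2 to 8, which selects most targets.
hsa-miR-26a-5p: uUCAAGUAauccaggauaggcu
hsa-miR-26b-5p: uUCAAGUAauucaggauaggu
hsa-miR-26a-1-3p: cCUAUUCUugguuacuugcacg
hsa-miR-26a-2-3p: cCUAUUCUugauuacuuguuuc
hsa-miR-26b-3p: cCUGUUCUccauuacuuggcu
Both 5p arms carry 1 seed, and both 3p arms of miR-26a carry another, from which the seed of miR-26b-3p differs. The further RefSeq miRNAs with the seed of the 5p arms, miR-1297 and miR-4465, were not analysed here. Counted from 1 at the 5′ end, hsa-miR-26a-5p and hsa-miR-26b-5p differ by C11U and C21U, with the base of miR-26a-5p first. The authors trimmed reads to 18 nt, so only C11U is inside the sequence that was counted. Within these 18 bases no other miRNA of the table with a RefSeq sequence comes closer to either 5p arm than 7 mismatches. The 3p arms hsa-miR-26a-1-3p and hsa-miR-26a-2-3p differ by G11A, C19U, A20U, C21U and G22C, of which only G11A was read. Each of these pairs was therefore told apart by 1 base, and the sources used here do not give the number of mismatches that the alignment allowed. hsa-miR-26b-3p has 3 mismatches to its nearest neighbour, hsa-miR-26a-2-3p. Because the reads stop at base 18, uridines added to 3′ ends were not measured.

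The hairpins are shown with both arms in capitals, since their positions separate the counts that belong to 1 locus from those that do not.
MIR26B: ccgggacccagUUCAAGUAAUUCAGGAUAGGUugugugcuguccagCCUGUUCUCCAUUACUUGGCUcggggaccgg
MIR26A1: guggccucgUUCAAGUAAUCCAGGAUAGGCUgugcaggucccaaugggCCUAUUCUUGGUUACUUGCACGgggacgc
MIR26A2: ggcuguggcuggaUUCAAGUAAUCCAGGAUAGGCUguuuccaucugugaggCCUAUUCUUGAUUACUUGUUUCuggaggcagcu
MIR26B lies at chr2:218402646-218402722 on the plus strand, in intron 4 of CTDSP1. MIR26A1 lies at chr3:37969404-37969480 on the plus strand, in intron 5 of CTDSPL. MIR26A2 lies at chr12:57824609-57824692 on the minus strand, in intron 5 of CTDSP2. All 3 hairpins have the strand of their host gene, and no exon of that host gene in GENCODE release 44 overlaps them. Exons of other genes were not examined. hsa-miR-26a-5p is made from both MIR26A1 and MIR26A2, so its count sums 2 loci, at chr3:37969413-37969434 and chr12:57824658-57824679. The other arms are each specific to 1 locus, hsa-miR-26b-5p at chr2:218402657-218402677, hsa-miR-26b-3p at chr2:218402692-218402712, hsa-miR-26a-1-3p at chr3:37969452-37969473 and hsa-miR-26a-2-3p at chr12:57824620-57824641. From the start of the 5p arm to the end of the 3p arm the precursors span 56 nt (MIR26B), 61 nt (MIR26A1) and 60 nt (MIR26A2). The fold predicted by RNAfold left a 3′ overhang of 2 nt on each (with the first 2 bases of the 5p arm unpaired in MIR26A2), the form usually called group I, whereas group II precursors have a shorter overhang. The study's list of 45 group II hairpins holds 0 miR-26 hairpins.

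The libraries held between 4338558 and 7967606 estimated counts, and levels are given as CPM, the count scaled to the library total. A CPM is a share, so less of a miRNA per cell and more of the others cannot be told apart. Means are given ± the SD over n = 3 libraries of a strain. let-7 and miR-98 made up 19.2% to 19.7% of all counts of a ΔTUT4/7 library and 5.57% to 6.36% of those of a wild type library. All other miRNAs together thus held a smaller share in ΔTUT4/7 cells, while single miRNAs among them were higher or lower. When let-7 and miR-98 were left out of the totals, the median log2 fold change over the 826 miRNAs moved from 0.013 to 0.23, and the split of calls from 192 higher and 181 lower to 258 higher and 136 lower. Fold changes come from the quasi-likelihood test of edgeR, and p-values were adjusted by the Benjamini-Hochberg method over all 826 miRNAs. A miRNA is said to have changed at an adjusted p under 0.05, and the study's limit of 2-fold is named separately.

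Of the 4 members, 3 decreased in ΔTUT4/7 cells (hsa-miR-26b-5p, hsa-miR-26b-3p and hsa-miR-26a-5p) and 0 increased. Among all 826 tested miRNAs, 21.9% decreased and 23.2% increased. Both arms of miR-26b fell by at least 2-fold, a limit that 13.6% of all tested miRNAs passed in this direction. The median log2 fold change of the 4 members was -0.75, against 0.013 over all tested miRNAs. In the same 3 members every ΔTUT4/7 library lay below every wild type library, a separation found in this direction for 29.5% of tested miRNAs.

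hsa-miR-26b-5p, the guide arm from the CTDSP1 intron, fell the most among the abundant arms of the family. Its level was 12927, 12137 and 11692 CPM in ΔTUT4/7 replicates 1, 2 and 3. Wild type replicates 1, 2 and 3 held 23123, 26481 and 30085 CPM. The highest ΔTUT4/7 library was thus far below the lowest wild type library, and the wild type libraries were the more spread. The mean was 12252 CPM ± 626 in ΔTUT4/7 cells and 26563 CPM ± 3482 in wild type cells. This is a log2 fold change of -1.12 with a standard error of 0.12 and an adjusted p of 1.54e-05 by edgeR, or 2.17-fold lower with a 95% interval of 1.81 to 2.60. By abundance hsa-miR-26b-5p ranked between 6 and 11 in the wild type libraries and between 19 and 22 in the ΔTUT4/7 libraries. With let-7 and miR-98 left out of the totals its log2 fold change was -0.89, and with a trend in GC content removed it was -0.90, in both cases still past the threshold but under 2-fold.

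hsa-miR-26b-3p, the other arm of the same hairpin, was scarce, with between 124 and 132 counts in ΔTUT4/7 libraries and between 202 and 431 in wild type libraries. Its level was 24.4, 27.4 and 27.7 CPM in ΔTUT4/7 replicates 1 to 3 and 45.8, 54.1 and 91.5 CPM in wild type replicates 1 to 3. The ΔTUT4/7 libraries lay close together, while wild type replicate 3 stood above the other wild type libraries. The mean was 26.5 CPM ± 1.82 against 63.8 CPM ± 24.4, a log2 fold change of -1.26 with a standard error of 0.25 and an adjusted p of 0.00182 by edgeR. The decrease was 2.40-fold, with a 95% interval of 1.63 to 3.52. Without wild type replicate 3 the log2 fold change was -0.92, past the threshold but under 2-fold.

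hsa-miR-26a-5p, the guide arm shared by the CTDSPL and CTDSP2 hairpins, decreased by much less. It measured 12387, 12057 and 11903 CPM in ΔTUT4/7 replicates 1 to 3 and 15399, 15112 and 16680 CPM in wild type replicates 1 to 3. The strains did not overlap, and the libraries of each strain lay close together. The mean was 12116 CPM ± 248 in ΔTUT4/7 cells and 15730 CPM ± 835 in wild type cells. The log2 fold change was -0.38, with a standard error of 0.10 and an adjusted p of 0.0112 by edgeR, or 1.30-fold lower with a 95% interval of 1.11 to 1.52. The call depended on the scaling. It held with TMM factors, at -0.34 (adjusted p = 0.0352 by edgeR), and with RLE factors, at -0.42 (adjusted p = 0.0131 by edgeR). With let-7 and miR-98 left out of the totals the log2 fold change of hsa-miR-26a-5p was -0.15 (adjusted p = 0.247 by edgeR), with means of 15031 and 16720 CPM on that scale, and the strains still did not overlap. With a trend in GC content removed it was -0.080 (adjusted p = 0.608). The call was also lost without ΔTUT4/7 replicate 2, at -0.37 (adjusted p = 0.0660), and without ΔTUT4/7 replicate 3, at -0.36 (adjusted p = 0.0540).

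hsa-miR-26a-2-3p, which comes from the CTDSP2 hairpin only, showed no difference larger than the spread between replicates. Its level was 86.5, 67.2 and 65.1 CPM in ΔTUT4/7 replicates 1 to 3 and 68.0, 61.2 and 81.6 CPM in wild type replicates 1 to 3. The strains overlapped, with the highest library in ΔTUT4/7 cells and the lowest in wild type cells. The means were 72.9 CPM ± 11.8 and 70.3 CPM ± 10.4, and the log2 fold change was 0.056 (adjusted p = 0.831 by edgeR). The 95% interval of -0.36 to 0.47 does not exclude a change of up to 1.39-fold higher or 1.28-fold lower.

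hsa-miR-26a-1-3p, the matching arm from the CTDSPL hairpin, was higher in ΔTUT4/7 cells. It measured 79.8, 72.6 and 60.6 CPM in ΔTUT4/7 replicates 1 to 3 and 45.8, 46.1 and 57.9 CPM in wild type replicates 1 to 3. The strains did not overlap, though ΔTUT4/7 replicate 3 and wild type replicate 3 were close, and 28.8% of tested miRNAs were separated in this direction. The means were 71.0 CPM ± 9.72 and 49.9 CPM ± 6.89. The log2 fold change of 0.51 had a standard error of 0.19 and an adjusted p of 0.0438 by edgeR, just inside the threshold, and equals 1.42-fold higher. This call held under 7 of 15 processing alternatives, and the log2 fold change ranged from 0.42 to 0.73 over them. It was lost without ΔTUT4/7 replicate 1 (0.42, adjusted p = 0.148) or 2 (0.49, adjusted p = 0.134) and without wild type replicate 1 (0.45, adjusted p = 0.106) or 2 (0.45, adjusted p = 0.121). The 3 arms of miR-26a spanned a decrease, an increase and no detected change, whereas both arms of miR-26b fell.

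**Figure D1:**
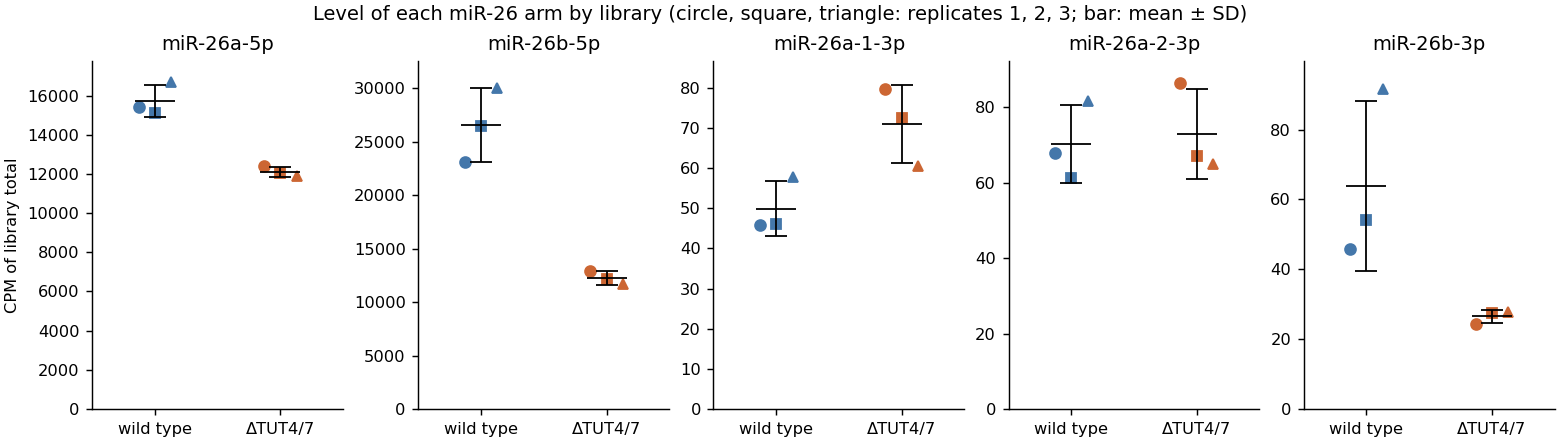
Level of each miR-26 arm in CPM of the library total, with wild type libraries in blue and ΔTUT4/7 libraries in orange, and bars at the mean ± SD of 3 libraries. hsa-miR-26b-5p lies at 11692 to 12927 CPM in ΔTUT4/7 cells and at 23123 to 30085 CPM in wild type cells, while the libraries of hsa-miR-26a-2-3p overlap.

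The ratio of 2 arms within a library does not depend on the library total or on let-7. In wild type replicates 1 to 3, hsa-miR-26b-5p was 1.50, 1.75 and 1.80 times as abundant as hsa-miR-26a-5p. In ΔTUT4/7 replicates 1 to 3 the ratio was 1.04, 1.01 and 0.982. Wild type cells thus held more miR-26b-5p than miR-26a-5p in every library, and ΔTUT4/7 cells held nearly equal counts of each. The ratio of hsa-miR-26a-5p to hsa-miR-26b-5p rose by 0.73 on the log2 scale, or 1.66-fold, from 0.597 ± 0.060 in wild type cells to 0.990 ± 0.030 in ΔTUT4/7 cells. The 2-sided exact permutation test gave p = 0.1, the smallest that 3 against 3 libraries can give, and an adjusted p of 0.15 over the 3 ratios tested. With 3 against 3 libraries this permutation test cannot go below 0.05, whatever the size of the difference. How efficiently each arm was captured was not measured, so a ratio between arms within 1 strain is of counts.

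The 5p to 3p ratio of miR-26b did not separate the strains. It was 529.0, 442.2 and 421.7 in ΔTUT4/7 replicates 1 to 3 and 505.0, 489.5 and 328.8 in wild type replicates 1 to 3. The libraries overlapped, with wild type replicate 3 the lowest. On the log2 scale the ratio differed by 0.093 (exact permutation p = 0.8, adjusted p = 0.8), less than the spread of the libraries within a strain. Between their edgeR fits the log2 fold changes of these arms were 0.15 apart, against a median gap of 0.57 over 200 hairpins with both arms tested, of which 28 had a smaller gap.

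For miR-26a the balance of the arms was lower in ΔTUT4/7 cells. The ratio of hsa-miR-26a-5p to hsa-miR-26a-2-3p was 143.2, 179.5 and 183.0 in ΔTUT4/7 replicates 1 to 3 and 226.5, 246.7 and 204.4 in wild type replicates 1 to 3. Every ΔTUT4/7 library was below every wild type library, a log2 difference of -0.43 or 1.34-fold lower (exact permutation p = 0.1, adjusted p = 0.15). The 5p count sums both loci, and the 3p count of hsa-miR-26a-2-3p covers only MIR26A2. The ratio of hsa-miR-26a-5p to hsa-miR-26a-1-3p, given as a description, had a mean of 172.6 ± 21.4 in ΔTUT4/7 cells and 317.6 ± 25.7 in wild type cells.

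The 3p arms were also compared with each other, since they mark the 3 loci separately. The ratio of hsa-miR-26a-1-3p to hsa-miR-26a-2-3p was 0.923, 1.08 and 0.931 in ΔTUT4/7 replicates 1 to 3 and 0.673, 0.752 and 0.709 in wild type replicates 1 to 3. The arm from the CTDSPL intron was thus the scarcer of the pair in all wild type libraries and near the other in ΔTUT4/7 libraries. The ratio of hsa-miR-26a-2-3p to hsa-miR-26b-3p was 3.54, 2.45 and 2.35 in ΔTUT4/7 replicates 1 to 3 and 1.49, 1.13 and 0.892 in wild type replicates 1 to 3. In every ΔTUT4/7 library the CTDSP1 arm was the rarest of these 3p arms. Neither of these ratios was tested.

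**Figure D2:**
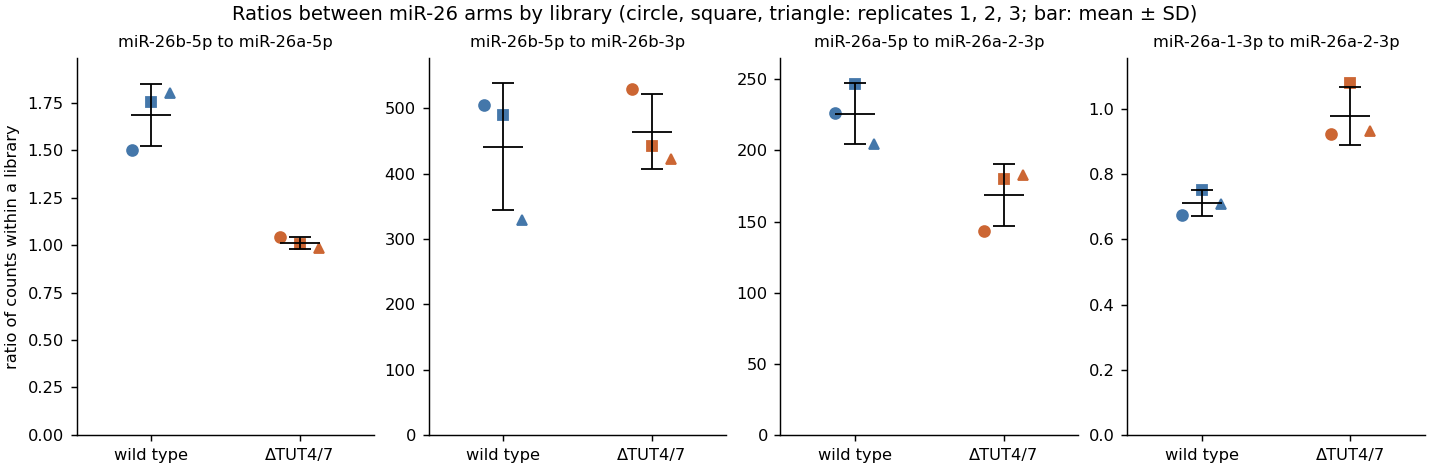
Ratios of counts between miR-26 arms within each library, with wild type in blue, ΔTUT4/7 in orange and bars at the mean ± SD of 3 libraries. The ratio of hsa-miR-26b-5p to hsa-miR-26a-5p lies between 1.50 and 1.80 in wild type and between 0.982 and 1.04 in ΔTUT4/7 libraries, whereas the 5p to 3p ratio of miR-26b overlaps.

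Since both 5p arms share their seed, their levels were summed as the dose of that seed among the counted reads. The sum was 25315, 24194 and 23595 CPM in ΔTUT4/7 replicates 1 to 3 and 38522, 41593 and 46766 CPM in wild type replicates 1 to 3. This is 2.36% to 2.53% of all miRNA counts in ΔTUT4/7 cells and 3.85% to 4.68% in wild type cells, with no overlap. The mean sum was 1.74-fold lower in ΔTUT4/7 cells, 24368 CPM ± 873 against 42294 CPM ± 4166. On these full totals hsa-miR-26b-5p accounted for 79.8% of the decrease. With let-7 and miR-98 left out of the totals the mean sums were 30232 and 44960 CPM, or 1.49-fold lower. On that scale the means in ΔTUT4/7 and wild type cells were 15201 and 28240 CPM for hsa-miR-26b-5p. Those of hsa-miR-26a-5p were 15031 and 16720 CPM, so the share from each arm depended on the scaling. Protein and mRNA of the targets were not analysed here.

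Among all 826 tested miRNAs the miR-26b arms were low but not extreme. A lower log2 fold change than that of hsa-miR-26b-3p was found for 12.8% of tested miRNAs, than that of hsa-miR-26b-5p for 15.9%, and than that of hsa-miR-26a-5p for 34.4%. hsa-miR-26a-2-3p stood near the middle, with 51.6% below it. Among the 27 tested miRNAs with a mean of at least 10000 CPM, hsa-miR-26b-5p was 1 of 4 that fell by at least 2-fold. The others were hsa-miR-148a-3p, hsa-miR-196a-5p and hsa-miR-34a-5p. Over all 826 tested miRNAs 13.6% fell by at least 2-fold. This abundance limit was set after the values were seen.

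**Figure D3:**
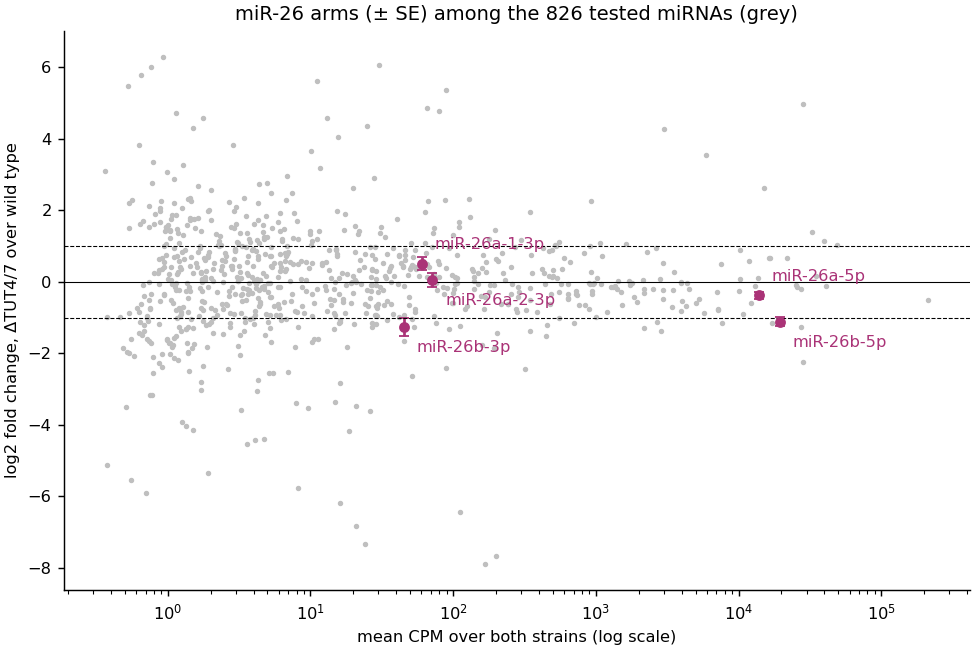
Log2 fold change of ΔTUT4/7 over wild type against mean CPM (log scale) for the 826 tested miRNAs in grey, with the miR-26 arms in purple ± SE and dashed lines at 2-fold. Both miR-26b arms lie below the lower dashed line, at -1.12 and -1.26, and hsa-miR-26a-5p lies at -0.38.

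The miRNAs whose levels over the 6 libraries were most like those of the 5p arms were sought among 386 others with a mean of at least 10 CPM. Likeness was the root mean square difference of mean-centred log2(CPM + 1), and a small value means a similar pattern. The pattern most like hsa-miR-26b-5p was that of hsa-miR-196a-5p, a miRNA of the HOX clusters, at 0.039 against a median of 0.63 over the candidates. hsa-miR-196a-5p measured 10896, 10294 and 10351 CPM in ΔTUT4/7 replicates 1 to 3 and 21115, 23131 and 26416 CPM in wild type replicates 1 to 3. Like hsa-miR-26b-5p it was lowest in wild type replicate 1 and highest in wild type replicate 3 among the wild type libraries. hsa-miR-23b-3p (0.091) and hsa-miR-99a-3p (0.13) came next. For hsa-miR-26a-5p the nearest were hsa-miR-365b-3p (0.056), hsa-let-7e-5p (0.063) and hsa-miR-96-5p (0.073), against a median of 0.40. All these patterns were taken over the same 6 libraries of 2 strains, so the difference between the strains enters each of them.

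Other miRNAs that are known to repress EZH2 were listed beside the miR-26 guide arms. hsa-miR-138-5p rose, from 39.8 CPM ± 6.18 in wild type to 64.9 CPM ± 2.28 in ΔTUT4/7 cells, a log2 fold change of 0.71 (SE 0.18, adjusted p = 0.00796 by edgeR). hsa-miR-101-3p measured 14.0 CPM ± 1.48 in ΔTUT4/7 cells against 10.2 CPM ± 2.16 in the wild type, with a log2 fold change of 0.46 (adjusted p = 0.124). Its log2 fold change was 0.68 both without let-7 and miR-98 in the totals (adjusted p = 0.0303) and with the GC trend removed (adjusted p = 0.0332), which brought it past the threshold. miR-124-3p and miR-214-3p were not analysed here. Of the list of 6, which includes both miR-26 guide arms, 4 were tested, of which 1 rose and 2 fell, with a median log2 fold change of 0.041, beside 23.2% higher, 21.9% lower and a median of 0.013 over all tested miRNAs. Under each of those alternatives 2 of the 4 rose and 1 fell. Of all 826 miRNAs 258 rose and 136 fell without let-7 and miR-98 in the totals. With the GC trend removed 177 rose and 154 fell of 742. Both miRNAs outside the family were far scarcer than either miR-26 guide arm.

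The miR-26 guide arms also belong to a set of miRNAs that MYC is known to repress, together with miR-15a and miR-16, miR-22, the miR-29 and miR-30 families, miR-34a, miR-146a, miR-150, and miR-195 with miR-497. let-7, also reported as repressed by MYC, was left out of the list used here. The 5p arms of let-7a, b, c, d, f, g and i rose, with log2 fold changes from 0.66 to 4.97. That of let-7e fell (-0.30). Of the 18 listed members, all tested, 9 fell and 2 rose, with a median log2 fold change of -0.29. Over all tested miRNAs 21.9% fell and 23.2% rose, with a median of 0.013. With let-7 and miR-98 left out of the totals 5 of the 18 fell, beside 136 of all 826. Those that fell by at least 2-fold were hsa-miR-26b-5p, hsa-miR-34a-5p and hsa-miR-30c-5p. hsa-miR-34a-5p, a target of p53, had 9818 CPM ± 512 in ΔTUT4/7 cells against 46668 CPM ± 2746, or a log2 fold change of -2.25 (SE 0.11, adjusted p = 9.94e-09 by edgeR). hsa-miR-30c-5p had a log2 fold change of -1.16 (SE 0.24, adjusted p = 0.00187). Wild type replicate 3 of hsa-miR-30c-5p, at 16056 CPM, stood above the other wild type libraries at 7566 and 8303 CPM, and without it the log2 fold change was -0.74. hsa-miR-29c-3p (0.94) and hsa-miR-497-5p (0.58) rose instead, the latter with an adjusted p of 0.0539 without ΔTUT4/7 replicate 2.

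miR-191 is another mature miRNA reported to be uridylated. hsa-miR-191-5p, with abundance similar to hsa-miR-26a-5p, had means of 12586 CPM ± 644 in ΔTUT4/7 cells against 13662 CPM ± 1181, and a log2 fold change of -0.12 (adjusted p = 0.408 by edgeR). Its strains overlapped. hsa-miR-191-3p rose from 137 CPM ± 24.8 to 203 CPM ± 9.72, a log2 fold change of 0.56 (SE 0.17, adjusted p = 0.0186). That call was lost with the GC trend removed, at 0.32, and without ΔTUT4/7 replicate 2 (0.52), wild type replicate 1 (0.48) or wild type replicate 2 (0.50).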

How the data were processed

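Mature miRNAs of 3 ΔTUT4/7 and 3 wild type HEK 293T libraries, made with the QIAseq miRNA Library Kit, were read on an Illumina NextSeq. The authors trimmed reads to 18 nt, aligned them with Bowtie 1.0.0 to hg38 and deposited estimated counts on miRBase mature miRNAs from Partek Flow 10.0.22, which divides reads that fit several miRNAs. Whether molecular identifiers were used is not stated in the sources at hand. The values are whole numbers, and wild type counts of miR-16-5p are rounded to 3 digits. The authors' comparison, with p-values, ratios, fold changes and strain means, was not used.

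Libraries, scaled to their total, were compared by strain with edgeR 4.0.16 (glmQLFit, glmQLFTest, factors of 1) in R 4.3.3. CPM, ratios and exact permutation tests were computed in Python 3.11.15. Of the 1000 miRNAs, 897 matched a RefSeq sequence by name, and 892 of these have the same chromosome and start. Hosts came from GENCODE release 44, and folds from RNAfold 2.7.2. The common dispersion was 0.0358.

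The members, lists, tests and alternatives were chosen with earlier results of these data known. Named miRNAs are the members, other arms and seed partners of miR-26, the EZH2 and miR-191 lists, members of the MYC list past the threshold and 2-fold, and the 3 miRNAs most like each 5p arm. Others (miR-148a-3p, miR-29c-3p, miR-497-5p and the let-7 5p arms beside the MYC list) were named after their values were seen. The alternatives were TMM and RLE factors, DESeq2 1.42.0, no filter on low counts, limma 3.58.1 with a trend on log2(CPM + 1), totals less the let-7 and miR-98 counts, filterByExpr, the replicate number as a block, removal of a GC trend (lowess, span 0.5, 742 miRNAs) and each of 6 libraries left out.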

Additional observations from a re-analysis of the deposited data

How the results depend on the processing

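hsa-miR-26b-5p and hsa-miR-26b-3p stayed past the threshold under all 15 alternatives, at least 2-fold lower in 13 and 14 of them, and hsa-miR-26a-5p in 11. Without let-7 and miR-98 in the totals hsa-miR-26a-5p was at -0.15 and the summed 5p arms at -0.57 (log2). On these totals 1 arm was at least 2-fold lower, the EZH2 list had 2 higher and 1 lower and the MYC list 5 lower. Of all 826 miRNAs 258 were higher and 136 lower there. With the GC trend removed hsa-miR-26a-5p was at -0.080 and 1 arm was at least 2-fold lower. In that setting the EZH2 list had 2 higher and 1 lower, the MYC list 5 lower and the miR-191 list 0 higher. Of the 742 miRNAs tested in it 177 were higher and 154 lower. With 1 library left out, the log2 fold change of hsa-miR-26a-5p ranged from -0.40 to -0.33 and that of hsa-miR-26a-2-3p from -0.086 (without ΔTUT4/7 replicate 1) to 0.18, with -0.036 without wild type replicate 2. The log2 difference of the 5p to 3p ratio of miR-26b ranged from -0.11 (without wild type replicate 3) to 0.20, with -0.0045 without ΔTUT4/7 replicate 1. Arms at least 2-fold lower numbered 1 (without wild type replicate 3) to 2, and EZH2 miRNAs lower 1 (without ΔTUT4/7 replicate 2 or 3) to 2. MYC miRNAs higher numbered 1 (without ΔTUT4/7 replicate 2) to 3 (without wild type replicate 3), and miR-191 arms higher 0 to 1. Over all tested miRNAs the fits with 1 library left out had 154 to 205 higher and 143 to 173 lower. The causes were not tested. Samples with the same replicate number did not deviate together (correlations of -0.17, -0.16 and -0.25 over 391 miRNAs). Samples with unlike numbers had correlations of -0.099 to 0.19. Pairing by number was thus not seen, but deviations from means of 3 libraries constrain each other and cannot exclude it. With the replicate block hsa-miR-26a-5p was at -0.38 (adjusted p = 0.0331), hsa-miR-26b-5p at -1.11 and hsa-miR-26b-3p at -1.20, while hsa-miR-26a-1-3p, at 0.51, was no longer past the threshold (adjusted p = 0.0861), and over all miRNAs 181 rose and 168 fell. The exact permutation test of the ratios cannot go below p = 0.1 with 3 libraries a strain.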
